A study of Homo sapiens with 4 samples.

Results

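The genes described are 10 genes known as transcriptional targets of the RAS to ERK cascade, of which 8 encode negative regulators of signalling and the ETS factors do not: the phosphatase genes DUSP1, DUSP4, DUSP5 and DUSP6, the Sprouty genes SPRY2 and SPRY4, their relatives SPRED1 and SPRED2, and the ETS transcription factor genes ETV4 and ETV5. They were taken by gene symbol from an expression table of 33478 genes, in which each of the 10 had 1 row, and all 10 passed the filter of a mean of at least 1 TPM over the libraries. The cells are MHCC-97H, a human hepatocellular carcinoma line derived for its high metastatic capacity, carrying either a short hairpin RNA (shRNA) labelled as directed against UCK2 (titles SH-UCK2-B, 2 libraries) or a control hairpin (titles SH-NC, 2 libraries). UCK2 is uridine-cytidine kinase 2, which phosphorylates uridine and cytidine in pyrimidine salvage. All 4 libraries come from 1 cell line, the letter B in the titles is not explained, and a single hairpin against UCK2 is all that the titles show. The labels do not say whether libraries of a group were separate cultures, so every p-value measures only the spread between these libraries.

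In the ERK pathway, growth factor receptors load RAS with GTP, RAS recruits RAF kinases, and these activate MEK, which phosphorylates ERK. Active ERK then induces its own brakes. DUSP proteins remove phosphate from MAP kinases, Sprouty proteins act between receptors and RAF, and SPRED proteins bring the RAS inactivator neurofibromin to the membrane. ETV4 and ETV5 belong to the PEA3 subfamily of ETS factors, whose transcription follows fibroblast growth factor and ERK signalling. For this reason the transcript levels of these genes are widely read as a measure of ERK output in tumour cells, hepatocellular carcinoma included.

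UCK2 itself did not separate the groups. It measured 120.5 and 67.8 TPM in libraries labelled UCK2 shRNA, against 135.7 and 93.6 TPM in those labelled control. Its log2 difference was -0.31 ± 0.30 (SE; limma adjusted p = 0.640), and its direction was opposite under quantile normalization (0.059), after rescaling that left out the 50 most abundant genes (0.034), and when UCK2 shRNA replicate 2 was left out (0.10). The groups are therefore named by their labels throughout. The descriptions of 1 library in each group also differ from the titles, in the cell line number of control replicate 2 and in the gene number of UCK2 shRNA replicate 2.

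TPM is a transcript abundance corrected for gene length, relative to all transcripts of a library, and the table keeps no read depth, so the depth behind each value is unknown. Columns of the libraries labelled UCK2 shRNA summed to 676811 and 643063 TPM, and those of the controls to 850379 and 850534 TPM, over the rows used here. Differences of the deposited values carry this gap: over the 14038 genes tested the log2 difference had a median of -0.22, and of -0.26 over the 8511 genes averaging 5 to 100 TPM, the range of levels of the 10 genes. After median-ratio scaling, which divides each library by its median ratio to the gene means, the corresponding medians were -0.01 and -0.03. Scaled values are given beside deposited ones for this reason. Hepatocyte and hepatoma markers were present in part, and 8 of 10 passed the filter. All 10 summed to 142 and 114 TPM in libraries labelled UCK2 shRNA against 175 and 149.8 TPM in the controls. Of the 8, 0 passed the test. After scaling 3 were lower without overlap and 1 higher, against 15.5% and 16.0% of all genes, and their median was -0.21. ALB measured 20.1 and 18.6 TPM against 29.5 and 25.8 TPM in the controls, lower without overlap with and without scaling. APOA2 measured 0.29 and 0.32 TPM, and was listed at 0 in both controls. Retina markers were read because the extraction protocol in the labels mentions retinas. They summed to 2.37 and 3.84 TPM against 2.66 and 3.83 TPM in the controls. Of 9 such markers OPN1SW alone passed the filter, it did not pass the test, and CRX was at or near 0. Of 7 fibroblast, 4 endothelial and 5 leukocyte markers, 1 each passed the filter (LUM, PECAM1 and CD68), and CDH5 and CD3E were at or near 0. LUM measured 19.1 and 12.7 TPM against 27.6 and 5.85 TPM in the controls, with both libraries labelled UCK2 shRNA between the controls. The other 6 fibroblast markers were at 1.39 TPM or less, failed the filter and were not tested. Of these, DCN (1.09 and 1.39 TPM against 0.456 and 0.328 TPM in the controls), COL1A2 (0.691 and 0.534 against 0.0877 and 0.209 TPM), PDGFRA and PDGFRB were higher without overlap. Among the genes that passed the filter 5.46% were. Of 4 epithelial markers 3 passed the filter and 0 the test, and the 4 summed to 2595 and 2257 TPM against 2937 and 4031 TPM in the controls. KRT18 (unadjusted p = 0.0190, limma adjusted p = 0.294) and KRT8 (unadjusted p = 0.0450, adjusted p = 0.319) were lower without overlap as deposited, as were 44.4% of all genes tested. For both, the groups overlapped after scaling. The part of these markers in the values of the 10 genes was not tested.

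To show what the promoters of these genes look like, the 250 bases before the RefSeq start (GRCh38.p14, 5′ to 3′ on the gene's strand) are given for 3 of them. DUSP1 had the log2 difference farthest from 0, DUSP6 was the most abundant member, and SPRY4 had the difference closest to 0. The DUSP1 stretch is chr5:172771196-172771445, the DUSP6 stretch chr12:89352502-89352751 and the SPRY4 stretch chr5:142324248-142324497, all on the minus strand. The DUSP6 and SPRY4 stretches lie within the gene intervals of the expression table, which begin on that strand at 89353271 and 142326455. They thus precede a RefSeq start, but not the start of the gene interval. Capitals mark matches to any of the motifs searched.
DUSP1: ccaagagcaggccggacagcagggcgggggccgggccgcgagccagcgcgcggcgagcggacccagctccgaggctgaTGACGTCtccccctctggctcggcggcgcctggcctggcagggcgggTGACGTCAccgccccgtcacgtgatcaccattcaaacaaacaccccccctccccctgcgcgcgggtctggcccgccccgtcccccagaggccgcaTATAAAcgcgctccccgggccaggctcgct
DUSP6: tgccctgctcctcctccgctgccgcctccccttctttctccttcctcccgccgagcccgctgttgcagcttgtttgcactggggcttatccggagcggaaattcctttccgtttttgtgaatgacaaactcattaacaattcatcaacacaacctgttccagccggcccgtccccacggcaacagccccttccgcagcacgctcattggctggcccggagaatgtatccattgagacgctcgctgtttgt
SPRY4: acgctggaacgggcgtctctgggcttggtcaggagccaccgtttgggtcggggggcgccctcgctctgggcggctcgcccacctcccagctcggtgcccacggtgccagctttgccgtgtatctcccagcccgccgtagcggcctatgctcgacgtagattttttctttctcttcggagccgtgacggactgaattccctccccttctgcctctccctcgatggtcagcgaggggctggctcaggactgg
The motifs, searched on both strands, were the cyclic AMP response element TGACGTCA, its shorter form TGACGTC, the AP-1 element TGANTCA, the ETS element CCGGAAG, the TATA element TATAAA and the CArG box of serum response factor. The DUSP1 stretch holds TGACGTCA with its first base 125 bases before the start, TGACGTC at 172, and TATAAA at 30. The shorter form also matches within the full element, on each strand. Of 35116 RefSeq promoter windows, each cut to the same 250 bases before the start, 1.65% hold TGACGTCA, 3.12% TGACGTC, 6.57% TGANTCA, 8.52% CCGGAAG, 10.7% TATAAA and 1.16% a CArG box. Windows were held for 6 of the 10 genes, and apart from DUSP1 the only match was a TATAAA in the window of an alternative SPRED2 start. That window, the SPRED1 window and the SPRY2 windows at 80340109-80340358 and 80339660-80339909 also lie within their gene intervals. The other SPRED2 window, 65432600-65432849, lies partly within its interval, which begins on the minus strand at 65432637. A match is a stretch of letters, and binding was not measured.

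The members covered a range from about 5 to 93 TPM, and their order was nearly the same in every library. By the mean over 4 libraries it ran DUSP6 (84.2 TPM), ETV4 (74.7), ETV5 (44.9), DUSP5 (43.9), DUSP4 (38.6), SPRED2 (34.5), SPRED1 (22.0), SPRY4 (11.6), DUSP1 (10.6) and SPRY2 (5.91). The ranges over the libraries overlapped for each pair of neighbours from DUSP6 down to SPRED2, and for SPRY4 and DUSP1. They were apart between SPRED2 and SPRED1, between SPRED1 and SPRY4, and between DUSP1 and SPRY2. DUSP4, SPRED2, SPRED1 and SPRY2 held the same place in all 4 libraries. The other changes of place were between neighbours: ETV4 stood above DUSP6 in UCK2 shRNA replicate 1, and in control replicate 2 DUSP5 stood above ETV5 and DUSP1 above SPRY4.

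**Figure D1:**
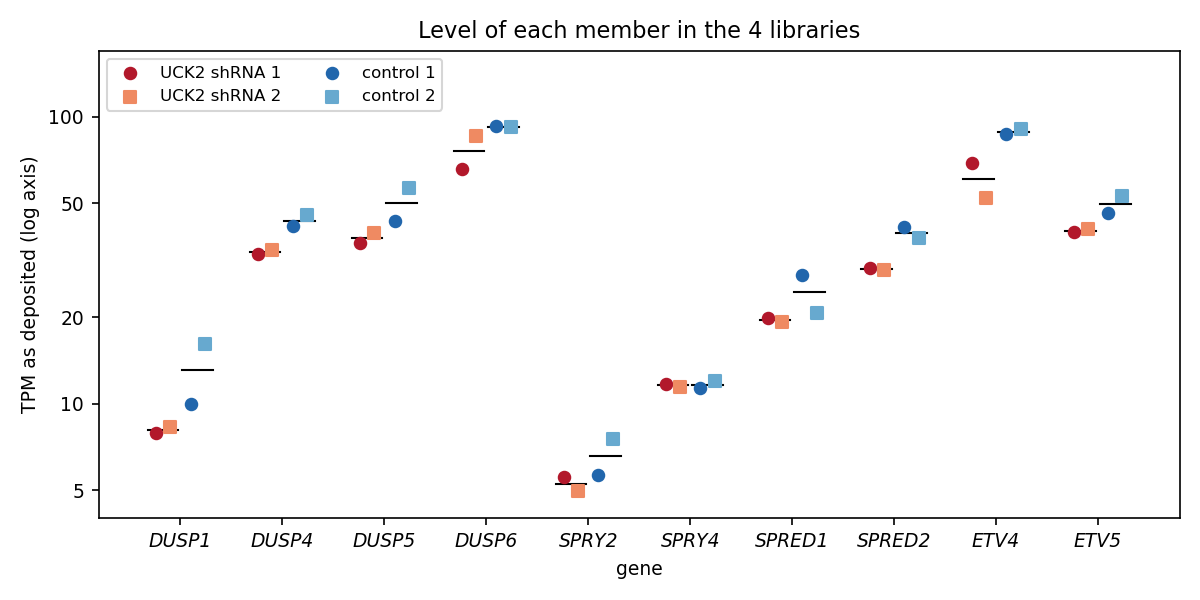
TPM as deposited (log axis) of the 10 genes in the 2 libraries labelled UCK2 shRNA (red, left in each pair) and the 2 labelled control (blue, right), with black bars at the group means of 2 libraries. For 9 genes both red points lie below both blue points, while for SPRY4 the 4 points lie between 11.3 and 12.0 TPM.

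None of the 10 genes passed the test between the groups, and all 10 had a log2 difference below 0 in the deposited values, from -0.60 for DUSP1 to -0.0048 for SPRY4. Over all genes, 0 of 14038 were called lower at an adjusted p under 0.05 with limma (0.00%) and 0 higher (0.00%), against 1962 lower at an unadjusted p under 0.05 (14.0%) and 194 higher (1.38%). Without control replicate 1 limma called 441 genes higher and 323 lower, and without control replicate 2 it called 26 and 19. Among the 10, ETV4 alone had an unadjusted p under 0.05. The groups did not overlap for 9 of the 10, each with the lower values under the UCK2 shRNA label, against 44.4% of all genes tested. None was higher without overlap, against 5.46% of all genes. A difference below 0 was seen in 74.7% of all genes. The median of the members was -0.33, against -0.22 for all genes tested. It was -0.30 for the 7562 genes averaging at least 10 TPM, as all members but SPRY2 did. Lower RNA in fewer cells and in every cell cannot be told apart in such bulk samples.

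After scaling, the differences lay from -0.38 for DUSP1 to 0.22 for SPRY4, and 9 of 10 were below 0, where 50.8% of all genes were. The scaled median of the members was -0.09, against -0.01 for all genes tested and -0.07 for those averaging at least 10 TPM. SPRED2 alone was lower without overlap, where 15.5% of all genes were, and SPRY4 alone was higher without overlap, where 16.0% were. None passed the test, nor had an unadjusted p under 0.05, where 1.42% of all genes were lower and 3.97% higher by that measure and 0.00% and 0.0641% at an adjusted p under 0.05. The 95% intervals of all 10 scaled differences held 0. Those of 9 members left out a 2-fold fall, the exception being DUSP1, and those of all 10 left out a 2-fold rise.

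**Figure D2:**
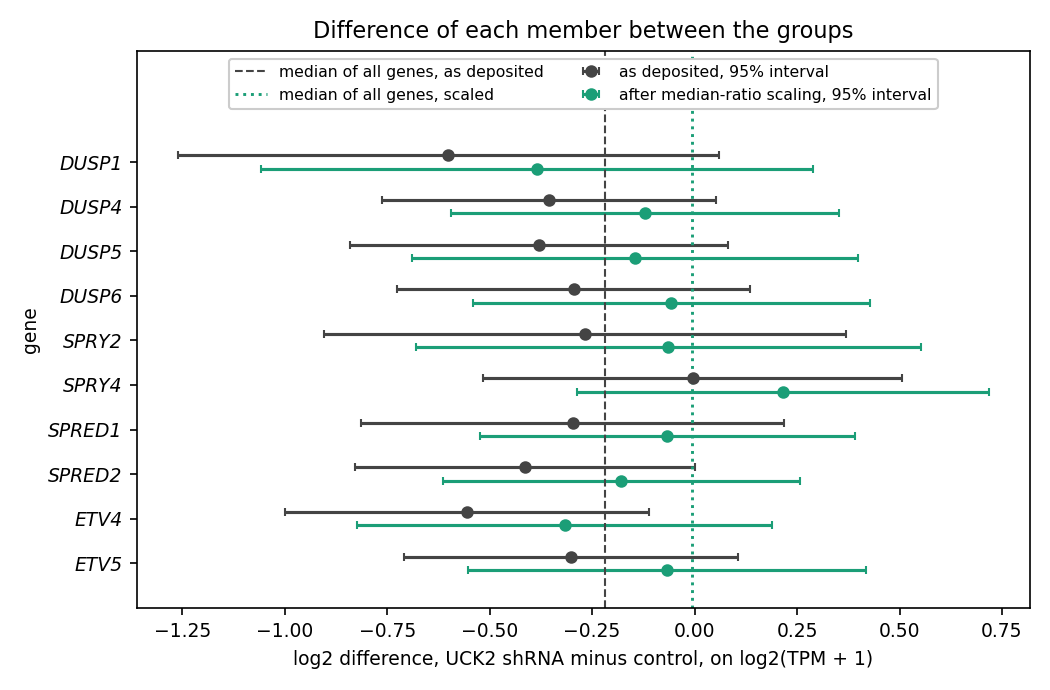
Log2 difference of each gene, UCK2 shRNA minus control on log2(TPM + 1), as deposited (grey) and after median-ratio scaling (green), with 95% intervals from limma (2 libraries a group). Vertical lines mark the medians of all 14038 genes, -0.22 as deposited and -0.01 scaled, and every green interval spans 0.

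Among the phosphatases, the nuclear enzyme gene DUSP1 gave the widest difference and the widest spread. DUSP1 is an immediate-early gene whose product dephosphorylates p38, JNK and ERK. It measured 7.89 and 8.27 TPM in libraries labelled UCK2 shRNA, against 9.9998 and 16.2 TPM in the controls. The groups did not overlap, and control replicate 2 stood well above the other libraries. The log2 difference was -0.60 ± 0.28 (SE; limma adjusted p = 0.354), and -0.38 ± 0.30 after scaling (adjusted p = 0.955). Without control replicate 1 DUSP1 was called lower (log2 difference -0.92, adjusted p = 0.0340), whereas without control replicate 2 the difference was -0.28 (adjusted p = 0.506), and 0.05 with scaling. By rank among the genes tested, which no scaling alters, DUSP1 was at percentiles 43.0 and 42.4 of the libraries labelled UCK2 shRNA, and at 42.1 and 58.9 of control replicates 1 and 2.

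DUSP4, an inducible nuclear phosphatase, measured 33.2 and 34.3 TPM against 41.5 and 45.5 TPM in the controls. The groups were apart and the replicates close together. Its log2 difference was -0.36 ± 0.17 (SE; limma adjusted p = 0.368), and -0.12 after scaling (adjusted p = 0.972). DUSP5, a nuclear phosphatase selective for ERK, measured 36.5 and 39.2 TPM against 43.3 and 56.6 TPM in the controls. Control replicate 2 was again the highest. For DUSP5 the log2 difference was -0.38 ± 0.20 (limma adjusted p = 0.386), and -0.15 after scaling (adjusted p = 0.971).

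DUSP6, the cytoplasmic phosphatase selective for ERK, was the most abundant member on average. Libraries labelled UCK2 shRNA averaged 75.9 ± 14.3 TPM and controls 92.5 ± 0.500 TPM (SD, n = 2 each). The single values were 65.8 and 86.0 TPM against 92.9 and 92.2 TPM. Here the spread lay in the libraries labelled UCK2 shRNA, and the controls were nearly equal. The log2 difference of DUSP6 was -0.29 ± 0.18 (SE; limma adjusted p = 0.461), and -0.06 after scaling (adjusted p = 0.990). Its sign was positive under quantile normalization (0.093) and after rescaling that left out the 50 most abundant genes (0.053). Scaled DUSP6 was 71.7 and 92.7 against 78.3 and 91.9 in the controls, so the libraries labelled UCK2 shRNA held both its lowest and its highest value. The ratio of DUSP6 to DUSP5 within a library, which depends on no scaling, was 1.80 and 2.19 against 2.14 and 1.63 in the controls, and the groups overlapped.

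SPRY2 and SPRY4 were the least abundant family among the members, and SPRY4 was the member with the smallest difference in the deposited values. SPRY1, a Sprouty gene outside the members, was more abundant, at 26.4 and 27.9 TPM against 39.5 and 35.9 TPM in the controls. It was lower without overlap as deposited and after scaling, as were 44.4% and 15.5% of all genes tested (limma adjusted p = 0.305 and 0.955). SPRY2, an inhibitor of receptor signalling to RAS and ERK, measured 5.55 and 4.96 TPM in libraries labelled UCK2 shRNA, against 5.63 and 7.52 TPM in the controls. UCK2 shRNA replicate 1 and control replicate 1 nearly coincided. For SPRY2 the log2 difference was -0.27 ± 0.27 (SE; limma adjusted p = 0.665), and -0.06 after scaling. SPRY4, a related inhibitor, measured 11.8 and 11.4 TPM against 11.3 and 12.0 TPM in the controls. The 4 values lay close together and the groups overlapped. The log2 difference of SPRY4 was -0.0048 ± 0.22 (limma adjusted p = 0.994; 95% interval -0.52 to 0.51), and 0.22 ± 0.22 after scaling (adjusted p = 0.955). Scaled SPRY4 was 12.8 and 12.3 against 9.53 and 11.9 in the controls.

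SPRY4 and ETV5 took a larger share of the summed TPM of the members under the UCK2 shRNA label, without overlap, and scaling leaves such shares as they are. For SPRY4 the share was 3.68% and 3.52% in the libraries labelled UCK2 shRNA, and 2.77% in each control. For ETV5 it was 12.41% and 12.46%, against 11.39% and 12.28% in the controls, a gap smaller than that between the controls. These shares were not tested, since the genes were picked out after their values were seen. The ratio of SPRY4 to SPRY2 was 2.12 and 2.31 against 2.01 and 1.59 in the controls, without overlap. It was the only ratio of those taken to do so, and it was not tested. The groups overlapped for DUSP6 to DUSP5, DUSP6 to ETV4, DUSP4 to DUSP5, SPRED2 to SPRED1 and ETV4 to ETV5. An antisense gene that GENCODE 29 names SPRY4-AS1 overlaps 1163 bases of SPRY4 and measured 3.53 and 3.86 TPM against 7.31 and 2.75 TPM in the controls.

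The SPRED genes, whose products bind neurofibromin, differed from each other in which control was higher. SPRED1 measured 19.8 and 19.2 TPM in libraries labelled UCK2 shRNA, against 28.2 and 20.8 TPM in the controls. Control replicate 1 was the highest, and control replicate 2 was close to the libraries labelled UCK2 shRNA. SPRED1 had a log2 difference of -0.30 ± 0.22 (SE; limma adjusted p = 0.535), and -0.07 after scaling. SPRED2 measured 29.6 and 29.2 TPM against 41.4 and 37.7 TPM in the controls. Its groups were apart, and the libraries labelled UCK2 shRNA differed by less than 1 TPM. The log2 difference of SPRED2 was -0.41 ± 0.18 (limma adjusted p = 0.328), and -0.18 after scaling (adjusted p = 0.955). Scaled SPRED2 was 32.3 and 31.4 against 34.9 and 37.6 in the controls, still without overlap.

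Of the ETS factors, ETV4 had the smallest p among the members. ETV4 measured 69.2 and 52.1 TPM in libraries labelled UCK2 shRNA, against 86.9 and 90.5 TPM in the controls. The controls lay close together and UCK2 shRNA replicate 2 was the lowest. The means were 60.7 ± 12.1 and 88.7 ± 2.54 TPM (SD, n = 2 each), and the log2 difference was -0.55 ± 0.19 (SE; limma adjusted p = 0.294, unadjusted p = 0.0211). After scaling it was -0.32 ± 0.22 (adjusted p = 0.955), and scaled ETV4 of UCK2 shRNA replicate 1, at 75.4, lay above control replicate 1, at 73.3. ETV4 lies on chromosome 17 from 43527844 to 43579620 (hg38, minus strand, ENSG00000175832), and its interval shares 16620 bases with DHX8, an RNA helicase gene on the plus strand that measured 34.5 and 24.8 TPM against 39.0 and 37.8 TPM in the controls. The strand setting of the counting is not given, so reads of the shared stretch may stand in either gene. DHX8 too was lowest in UCK2 shRNA replicate 2, and its part in the ETV4 value was not tested.

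ETV5, the closest relative of ETV4 in this list, measured 39.6 and 40.5 TPM in libraries labelled UCK2 shRNA, against 46.4 and 53.0 TPM in the controls. The groups were apart. For ETV5 the log2 difference was -0.30 ± 0.17 (SE; limma adjusted p = 0.430), and -0.07 after scaling (adjusted p = 0.988). The ratio of ETV4 to ETV5 was 1.75 and 1.29 against 1.87 and 1.71 in the controls, so UCK2 shRNA replicate 1 lay between the controls and replicate 2 below them. ETV5 shares 4651 bases with DGKG, a diacylglycerol kinase gene on its own strand, at 16.7 and 15.5 TPM against 17.1 and 15.2 TPM. Besides DHX8 and DGKG, 6 rows overlap DUSP1, DUSP6, SPRY4, SPRED2, ETV4 or ETV5, each below 10 TPM in every library. All 10 gene intervals equal those of GENCODE 29 on GRCh38.

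The spread between the controls was the widest feature of the scaled values. Control replicate 2 exceeded control replicate 1 for 9 of 10 members, SPRED1 being the exception, where 50.5% of all genes tested did so. The median log2 gap between these 2 controls was 0.33 for the members and 0.0046 for all genes. Control replicate 2 was the highest of the 4 libraries for 7 members, against 35.4% of all genes, and control replicate 1 was the lowest for 6, against 18.5%. Both libraries labelled UCK2 shRNA lay between the controls for 5 of 10, against 19.5% of all genes. The median deviation of the members from their own mean was -0.06 and -0.05 in the libraries labelled UCK2 shRNA, and -0.15 and 0.24 in control replicates 1 and 2.

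**Figure D3:**
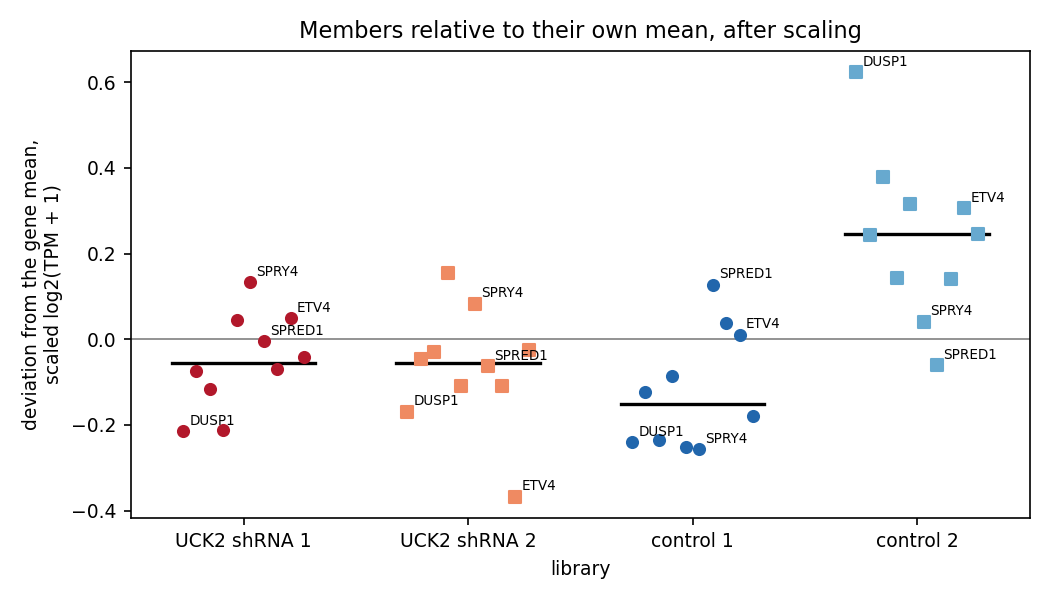
Deviation of each gene from its own mean over the 4 libraries, on scaled log2(TPM + 1), 1 point a gene in the order DUSP1 to ETV5 from left to right, with black bars at the medians of 10 genes. Control 2 sits highest (median 0.24) and control 1 lowest (median -0.15), with both libraries labelled UCK2 shRNA between them.

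The direction of the scaled median therefore turned on which control was used. Without control replicate 2 the scaled median of the members was 0.07, with 3 of 10 below 0, and without control replicate 1 it was -0.29, with 8 of 10 below 0. Without UCK2 shRNA replicate 1 or 2 it was -0.10 and -0.12. The immediate-early genes EGR1 and FOS of the ERK-responsive list, singled out after their values were seen, were also highest in control replicate 2, but lowest in UCK2 shRNA replicate 1, with and without scaling. EGR1 measured 7.86 and 16.3 TPM in libraries labelled UCK2 shRNA, against 10.5 and 30.8 TPM in control replicates 1 and 2, and FOS measured 6.58 and 12.2 TPM against 11.1 and 21.8 TPM. Their part in the spread of the members was not tested.

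**Figure D4:**
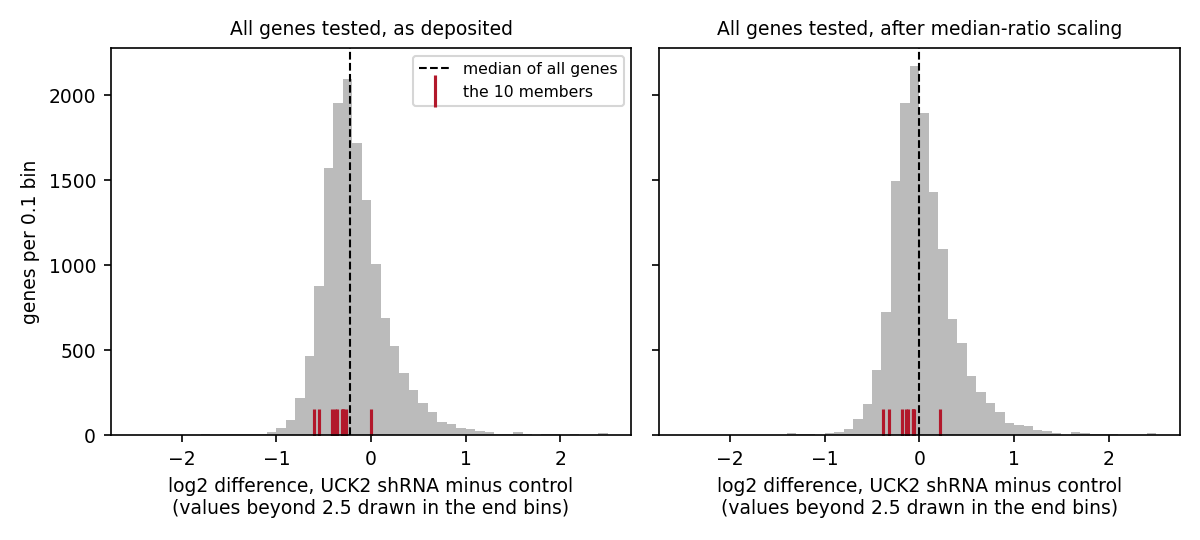
Log2 difference (UCK2 shRNA minus control) of all 14038 genes tested, as deposited and after median-ratio scaling, in bins of 0.1, with the 10 members as red ticks and the median of all genes as a dashed line. The members lie within the main body of both distributions, around medians of -0.33 and -0.09.

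Genes around the members in the pathway gave no call either. For the counts below 0 in this and the other pathway lists, the shares over all genes tested were 74.7% as deposited and 50.8% after scaling. Of the other family members (DUSP, Sprouty, SPRED and ETS genes), 14 of 17 were tested, 0 passed in either direction, 13 were below 0 as deposited and 11 after scaling, and the scaled median was -0.09. ERF, an ETS repressor that ERK exports from the nucleus, had the smallest p of these. It measured 101 and 86.4 TPM in libraries labelled UCK2 shRNA, against 162 and 145 TPM in the controls. Its groups were apart with and without scaling (log2 difference -0.71 ± 0.16, limma adjusted p = 0.294; scaled -0.47, adjusted p = 0.902). ELK1, an ETS factor that ERK phosphorylates, measured 34.1 and 27.8 TPM against 42.5 and 49.1 TPM in the controls. In the scaled values ELK1 overlapped between groups, with a log2 difference of -0.32 (limma adjusted p = 0.955).

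Of the RAS to ERK cascade, 28 of 28 genes were tested, 0 passed, 19 were below 0 as deposited and 13 after scaling, and the scaled median was 0.04. MAP2K1, which encodes MEK1, measured 34.1 and 28.4 TPM in libraries labelled UCK2 shRNA, against 51.2 and 53.6 TPM in the controls. Its groups did not overlap (log2 difference -0.73 ± 0.18, limma adjusted p = 0.294; scaled -0.50, adjusted p = 0.902). The adaptor gene GRB2 measured 211 and 156 TPM against 274 and 302 TPM in the controls, and its groups were apart as well (log2 difference -0.66, limma adjusted p = 0.294; scaled -0.42, adjusted p = 0.955). SHC1, another adaptor and the most abundant of this list, measured 279.9 and 281 TPM against 356 and 397 TPM, with a scaled difference of -0.18. NF1, the neurofibromin gene, had the smallest p of this list after scaling and went the other way. It measured 19.9 and 18.3 TPM against 16.9 and 10.2 TPM in the controls (log2 difference 0.51, scaled 0.73, limma adjusted p = 0.749 after scaling). After scaling 3 genes of the list were lower without overlap and 2 higher, against 15.5% and 16.0% of all genes.

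Of 20 other ERK-responsive genes 18 were tested, 0 passed, 17 were below 0 as deposited and 16 after scaling, and the scaled median was -0.17. SPHK1, a sphingosine kinase, had the smallest p. Its libraries labelled UCK2 shRNA measured 48.8 and 46.8 TPM, against 64.5 and 77.9 TPM in the controls (log2 difference -0.56 ± 0.18, limma adjusted p = 0.294; scaled -0.32, adjusted p = 0.955). FOSL1, an AP-1 subunit, measured 37.3 and 35.1 TPM against 48.1 and 64.4 TPM in the controls (log2 difference -0.61, scaled -0.37). Both had control replicate 2 as their highest library. ERRFI1, an inhibitor of EGFR, and MCL1, which restrains apoptosis, were the most abundant, with scaled differences of -0.02 and -0.15.

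Of 18 receptors and ligands 11 were tested and 0 passed, with 9 below 0 as deposited, 7 after scaling, and a scaled median of -0.06. MET, the hepatocyte growth factor receptor, measured 1161 and 1148 TPM in libraries labelled UCK2 shRNA, against 1739 and 1189 TPM in the controls. Control replicate 1 alone stood apart, and the scaled difference of MET was -0.08 (limma adjusted p = 0.988). ERBB3 measured 51.2 and 53.8 TPM against 62.2 and 37.3 TPM, with the libraries labelled UCK2 shRNA between the controls as deposited. Scaled ERBB3 was 55.8 and 58.0 against 52.5 and 37.2, higher without overlap (scaled difference 0.36, limma adjusted p = 0.955). FGFR3 measured 18.0 and 16.8 TPM against 31.1 and 24.4 TPM in the controls, apart with and without scaling (log2 difference -0.64, limma adjusted p = 0.294; scaled -0.41, adjusted p = 0.949). FGFR4, the main fibroblast growth factor receptor of hepatocytes, measured 41.3 and 31.8 TPM against 50.2 and 51.4 TPM. Its ligand gene FGF19 was listed at 0 in 3 libraries, and its co-receptor gene KLB was at 0.11 TPM or less in each.

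The genes whose scaled profile lay closest to that of DUSP6 over the 4 libraries were OASL, B3GNTL1 and CWC25. Their Euclidean distances on centred log2(TPM + 1) were 0.0311, 0.0442 and 0.0467. OASL measured 4.97 and 6.64 TPM in libraries labelled UCK2 shRNA, against 6.90 and 7.21 TPM in the controls, at a lower level than DUSP6 but in like proportion. With 4 libraries, 50 of 11531 protein-coding genes lay within 0.1 of DUSP6.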

How the data were processed

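RNA of 4 MHCC-97H libraries was read as TPM, a length-corrected abundance deposited by the authors a row for each gene. Per the submitters' processing notes, hg38, HTSeq, TopHat2 2.0.14, edgeR and DESeq were used, in roles they do not state. Strand use is not given in the sources. TPM keeps no read totals, so no counting interval is given.

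Groups follow the titles. Genes with a mean of at least 1 TPM (14038 of 33478) were compared on log2(TPM + 1), a scale that understates differences of low genes, with limma 3.58.1 in R 4.3.3 (eBayes with trend, two-sided, Benjamini-Hochberg adjustment over all genes tested, threshold 0.05). An exact permutation test of 2 against 2 cannot go below p = 0.333. Median-ratio factors were 0.918 and 0.928 for the UCK2 shRNA libraries and 1.19 and 1.00 for the controls.

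The members and gene lists were chosen with earlier results of these data known. The text names all members, UCK2, rows overlapping members, the 2 most abundant genes and the 2 with the smallest p of each pathway list, and the 3 genes nearest DUSP6. EGR1, FOS, FGF19 and KLB and some markers were named outside this rule, and 2 genes of the lists are not reported here. The fit was tested on simulated data. Alternatives were other scalings, pseudocounts, filters and variance models, a replicate block, and each library left out in turn. Promoters are from RefSeq (GRCh38.p14).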

Additional observations from a re-analysis of the deposited data

How the results depend on the processing

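No member passed under any alternative except DUSP1 without control replicate 1 (adjusted p = 0.0340). The median of the members (-0.33) was -0.094 with median-ratio scaling, alone or with the replicate block, -0.053 with quantile normalization and 0.0098 with rescaling that left out the 50 most abundant genes. Leaving out 1 library gave -0.41 to -0.28 as deposited and -0.29 to 0.067 with scaling, an alternative chosen after seeing the data. Genes called were 0 higher and 0 lower as deposited, 9 and 0 with median-ratio scaling, and 8 and 0 with quantile normalization. Leaving out 1 library gave 0 to 441 higher and 0 to 323 lower, and with scaling 0 to 295 and 0 to 24, each upper count without control replicate 1. The replicate block gave 29 higher and 10 lower, or 98 and 23 with scaling. The labels do not say that a shared number marks a shared batch, so the block is not read as a pairing. Deviations of same-numbered libraries had a weak correlation of -0.21 across genes, which cannot decide the question with 2 libraries a group.

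Signs opposite to the deposited ones were as follows, and the cause was not tested. With median-ratio scaling, alone or with the replicate block, SPRY4 gave 0.22. With quantile normalization DUSP6 gave 0.093, SPRY4 0.18, ETV5 0.020 and UCK2 0.059. With the rescaling DUSP6 gave 0.053, SPRY2 0.033, SPRY4 0.32, SPRED1 0.039, ETV5 0.042 and UCK2 0.034. Leaving out 1 library, with or without scaling, gave -0.92 to 0.054 for DUSP1, -0.42 to 0.069 for DUSP4, -0.57 to 0.17 for DUSP5, -0.49 to 0.13 for DUSP6, -0.45 to 0.22 for SPRY2, -0.044 to 0.37 for SPRY4, -0.51 to 0.025 for SPRED1, -0.40 to 0.15 for ETV5 and -0.72 to 0.35 for UCK2. SPRED2 and ETV4 stayed below 0 in every alternative run, and leaving out 1 library, with or without scaling, gave -0.48 to -0.12 for SPRED2 and -0.76 to -0.10 for ETV4, its end nearest 0 without UCK2 shRNA replicate 2. With 2 libraries a group and unknown depth, small differences are not resolved.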
